A study of Homo sapiens with 8 samples.

Results

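The aminoacyl-tRNA synthetases are the enzymes that load each tRNA with its amino acid. A gene was counted as a member if its symbol is that of a cytosolic or mitochondrial synthetase, or of 1 of the 3 scaffold proteins that hold several cytosolic synthetases together. The symbols used leave out TARS3, another threonyl-tRNA synthetase, which had 3 counts over the 8 libraries. The rule gave 40 of the 20046 protein-coding genes in GENCODE. Of these, 20 encode cytosolic enzymes, including GARS1 and KARS1, whose products serve both compartments. A further 17 encode mitochondrial enzymes, and AIMP1, AIMP2 and EEF1E1 encode the scaffold proteins. The rule used gene identity only and no measured value.

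Most synthetases recognize a single amino acid and the tRNAs that decode it, while EPRS1 joins the glutamate and proline enzymes in a single protein, and protein synthesis needs the whole set. In animal cells some cytosolic synthetases (among them EPRS1, IARS1, LARS1, MARS1, QARS1, RARS1 and KARS1) join the 3 scaffold proteins in the multi-tRNA synthetase complex, while mitochondria import a separate set made from nuclear genes. When amino acids run short, the kinase GCN2 (EIF2AK4) raises translation of ATF4, a transcription factor that is known to induce many cytosolic synthetase genes together with genes of amino acid synthesis and import. Several synthetases also have functions outside translation, and for tryptophanyl-tRNA synthetase (WARS1) a shorter form made from an alternatively spliced mRNA is known.

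The libraries came from MOLM-13, a human acute myeloid leukemia cell line, carrying a dox-inducible shRNA against PTBP1 (shPTBP1, PTBP1 KD, 4 biological replicates) or a control shRNA (shControl in the sample labels and shSCR below, 4 biological replicates). PTBP1 is an RNA-binding protein that represses or promotes the use of exons next to pyrimidine-rich RNA. All 8 cultures received dox for 9 days, including the controls. Doxycycline is known to inhibit mitochondrial ribosomes, and cells without dox were not analysed here. A single shRNA per target was used, so any other difference between the 2 cell populations and the loss of PTBP1 cannot be told apart.

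Total RNA was read as nanopore cDNA, which can place a read on a splice isoform, and the authors' counts per annotated transcript were summed to genes. The libraries held 1528449 to 1613342 counts each, and members took between 1.05% and 1.16% of them. PTBP1 itself was at 6.33, 9.91, 8.56 and 14.7 normalized counts per 1000000 (CPM) in the shPTBP1 libraries and at 39.9, 57.3, 42.7 and 50.05 CPM in the shSCR libraries. Of 8 myeloid markers, CEBPA, CD33, LYZ and CSF3R had 93 or more counts in every library, FLT3, MPO and ITGAM had 3 to 25, and SPI1 had at most 1. The 13 markers of lymphoid, erythroid and non-hematopoietic cells had at most 4 counts.

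The synthetase genes as a group differed little in level between PTBP1 KD and control cells. Of the 40 members 36 had enough counts to be tested, and 18 of them lay below and 18 above a log2 fold change of 0, with a median of 0.00 on the log2 scale. Over all 7597 genes tested the median was −0.00. The median size of the log2 fold change, without its sign, was 0.085 for the members and 0.17 for all genes, at a median standard error of 0.088 and 0.17. At an adjusted p under 0.05 in the edgeR quasi-likelihood test, 0 members were lower and 1 was higher (EEF1E1), where 3.19% of all genes tested were called lower and 2.36% higher. Without adjustment 4 of the 36 members had a p under 0.05 in edgeR, where 19.2% of all genes did. The CPM values of the 2 groups did not overlap for 2 members, EEF1E1 and HARS2, where they did not overlap for 12.7% of all genes tested. In bulk RNA a difference in the number of transcripts per cell cannot be told apart from a difference in the makeup of the culture.

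**Figure D1:**
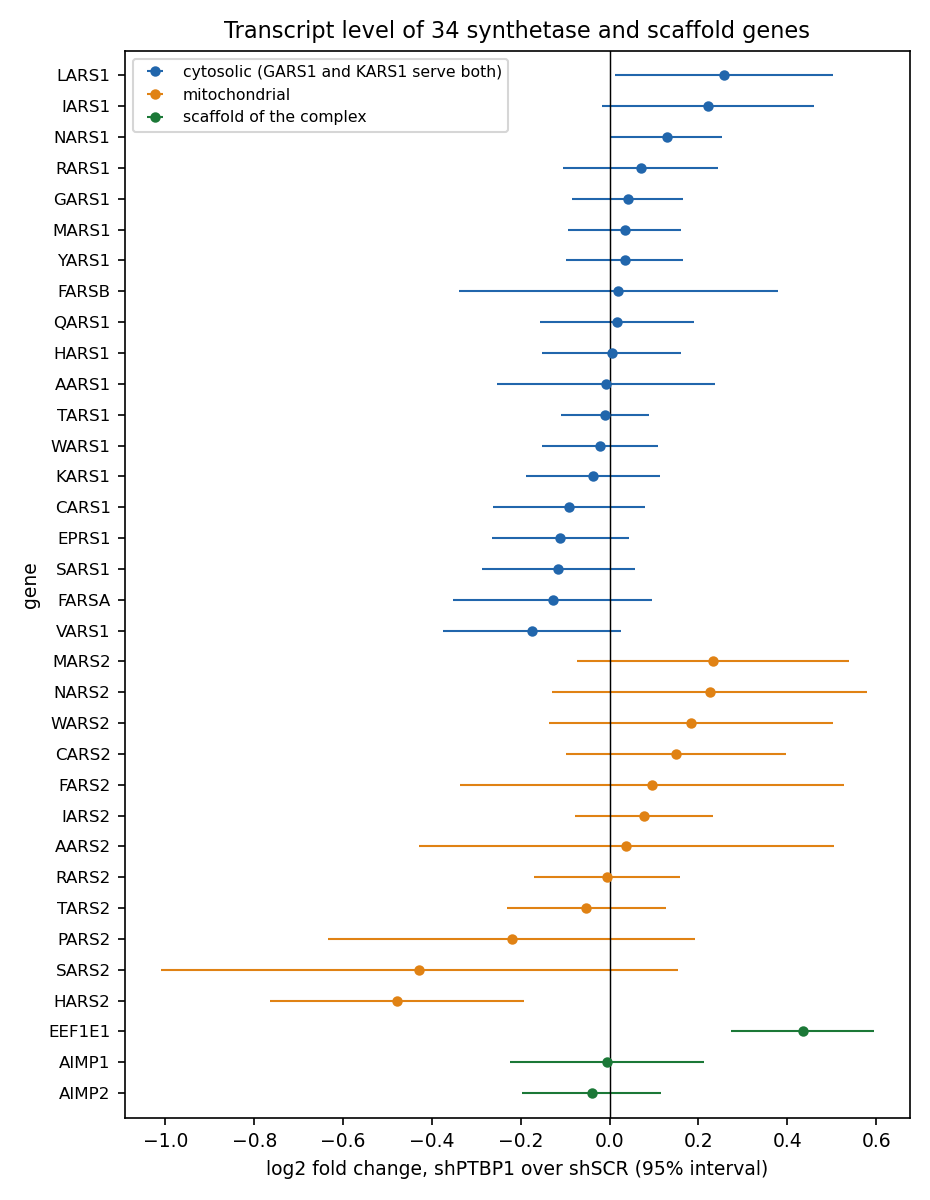
Log2 fold change of shPTBP1 over shSCR (x axis, points) with 95% intervals (bars) from the edgeR fit for 34 of the 36 members tested (y axis), colored by compartment, with 4 libraries in each group. The cytosolic enzymes sit between −0.17 and 0.26, HARS2 is lowest at −0.48, and EEF1E1 is highest at 0.43.

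None of the 20 cytosolic enzymes was called by edgeR, and 2 of them (LARS1 and NARS1) had an unadjusted p under 0.05. DESeq2 and limma-voom also called 0. Their log2 fold changes ran from −0.17 for VARS1, the valine enzyme, to 0.26 for LARS1, the leucine enzyme. For 14 of the 20, the 95% interval of the fold change lay between 0.8 and 1.25, so that changes outside that range are not in those intervals. Summed over the 20 genes, the level was 9756 ± 316 CPM (SD, n = 4) in shPTBP1 and 9665 ± 195 CPM in shSCR. TARS1, the threonine enzyme, had the highest mean level in shSCR, at 2770 CPM, followed by NARS1, the asparagine enzyme, at 1637 CPM and WARS1 at 989 CPM. Without TARS1 and NARS1 the summed level was 5542, 5062, 5165 and 5096 CPM in shPTBP1. In shSCR it was 5231, 5471, 5330 and 4998 CPM, so the groups overlapped.

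TARS1 was at 2750 ± 78.2 CPM (SD, n = 4) in shPTBP1 and 2770 ± 43.0 CPM in shSCR, a log2 fold change of −0.01. Others, with their log2 fold changes, were RARS1 at 0.07, GARS1 at 0.04, MARS1 at 0.03, YARS1 at 0.03, FARSB at 0.02, QARS1 at 0.02, HARS1 at 0.00, AARS1 at −0.01, WARS1 at −0.02, KARS1 at −0.04, CARS1 at −0.09, EPRS1 at −0.11, SARS1 at −0.12 and FARSA at −0.13. The edgeR adjusted p of these 15 genes was 0.437 or above. Several members share exonic bases with expressed genes on the other strand. Among them, HARS1 shares 1090 bases with WDR55, and YARS1 shares 396 with S100PBP. MARS1 shares 519 with ARHGAP9 and 355 with DDIT3, and KARS1 shares 176 with TERF2IP. Of the scaffold genes, AIMP2 shares 532 with EIF2AK1 and AIMP1 shares 476 with TBCK. The strand used in counting is not given in the sources used here, so reads from such bases may have been given to either gene.

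The cytosolic enzymes with the smallest p were LARS1, NARS1, IARS1 and VARS1. LARS1 was at 67.1, 68.7, 67.8 and 60.8 CPM in shPTBP1 and at 63.9, 52.8, 58.0 and 46.2 CPM in shSCR, a log2 fold change of 0.26 (edgeR adjusted p = 0.239, SE 0.11). Of its libraries, shPTBP1 replicate 4 lay below the highest shSCR library, so the groups overlapped. NARS1 was at 1780, 1803, 1887 and 1689 CPM in shPTBP1 and at 1754, 1522, 1617 and 1657 CPM in shSCR, a log2 fold change of 0.13 (edgeR adjusted p = 0.246, SE 0.06). Here too a single library of each group, shPTBP1 replicate 4 and shSCR replicate 1, made the groups overlap.

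IARS1, the isoleucine enzyme of the complex, was at 174, 141, 128 and 161 CPM in shPTBP1 and at 149, 135, 111 and 122 CPM in shSCR, a log2 fold change of 0.22 (edgeR adjusted p = 0.299, SE 0.11). VARS1 was at 187, 155, 149 and 163 CPM in shPTBP1 and at 181, 213, 175 and 169 CPM in shSCR, a log2 fold change of −0.17 (edgeR adjusted p = 0.336, SE 0.09). In IARS1 shPTBP1 replicates 2 and 3 lay within the range of shSCR, and in VARS1 only shPTBP1 replicate 1 did.

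Of the 17 mitochondrial enzymes 13 were tested and 0 were called by edgeR, DESeq2 or limma-voom, with 1 unadjusted edgeR p under 0.05. Their summed level, all 17 included, was 852 ± 19.6 CPM (SD, n = 4) in shPTBP1 and 842 ± 25.3 CPM in shSCR. These genes were less abundant than the cytosolic set, with shSCR means of 16.2 to 277 CPM among those tested, and the 95% interval of the fold change lay between 0.8 and 1.25 for only 3 of them. IARS2 (0.08), RARS2 (−0.01) and TARS2 (−0.05) were those 3 genes, given by their log2 fold changes. NARS2 (0.23), WARS2 (0.18), CARS2 (0.15), FARS2 (0.10), AARS2 (0.04) and PARS2 (−0.22) had wider intervals and an edgeR adjusted p of 0.504 or above.

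HARS2, the mitochondrial histidine enzyme (chr5:140691430-140699305, plus strand, hg38), was at 37.3, 41.6, 35.5 and 34.6 CPM in shPTBP1 and at 50.4, 61.1, 54.0 and 42.4 CPM in shSCR. All 4 shPTBP1 libraries lay below all 4 shSCR libraries, although shPTBP1 replicate 2 and shSCR replicate 4 were close to each other. The log2 fold change was −0.48 (edgeR adjusted p = 0.0531, SE 0.13, 95% interval of the fold change 0.589 to 0.874), which did not pass the threshold. Without shSCR replicate 4, the control library closest to shPTBP1, it passed, with a log2 fold change of −0.56 and an edgeR adjusted p of 0.0359. In all, HARS2 was called in 2 of 14 alternatives. Their adjusted p ran from 0.0305 to 0.150 and their log2 fold change from −0.56 to −0.39. HARS2 lies head to head with HARS1, with which it shares 108 exonic bases on opposite strands, and shares 152 bases with ZMAT2 on its own strand. HARS1, the cytosolic histidine enzyme, was at 132 ± 2.88 CPM (SD, n = 4) in shPTBP1 and 132 ± 7.31 CPM in shSCR.

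MARS2, the mitochondrial methionine enzyme, was at 55.7, 44.3, 54.6 and 48.0 CPM in shPTBP1 and at 52.8, 43.3, 42.7 and 33.4 CPM in shSCR, a log2 fold change of 0.23 (edgeR adjusted p = 0.410, SE 0.14). SARS2, the mitochondrial serine enzyme, was at 13.9, 6.61, 17.8 and 9.60 CPM in shPTBP1 and at 14.1, 19.1, 16.7 and 14.8 CPM in shSCR, a log2 fold change of −0.43 (edgeR adjusted p = 0.425, SE 0.27). Both genes overlapped between the groups, and the interval of the fold change of SARS2, from 0.496 to 1.11, was the widest of the members tested on the log2 scale.

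The remaining 4 mitochondrial enzymes had too few counts to be tested. EARS2, the glutamate enzyme, had 26 counts over the 8 libraries, VARS2 had 39, YARS2 had 60 and LARS2 had 71. EARS2 had 2, 1, 3 and 1 counts in shPTBP1 and 6, 3, 5 and 5 in shSCR, and the exact two-sided permutation p of its CPM was 0.0571. Of the shPTBP1 libraries only replicate 3 lay above the lowest shSCR library in EARS2, with few counts behind each value.

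**Figure D2:**
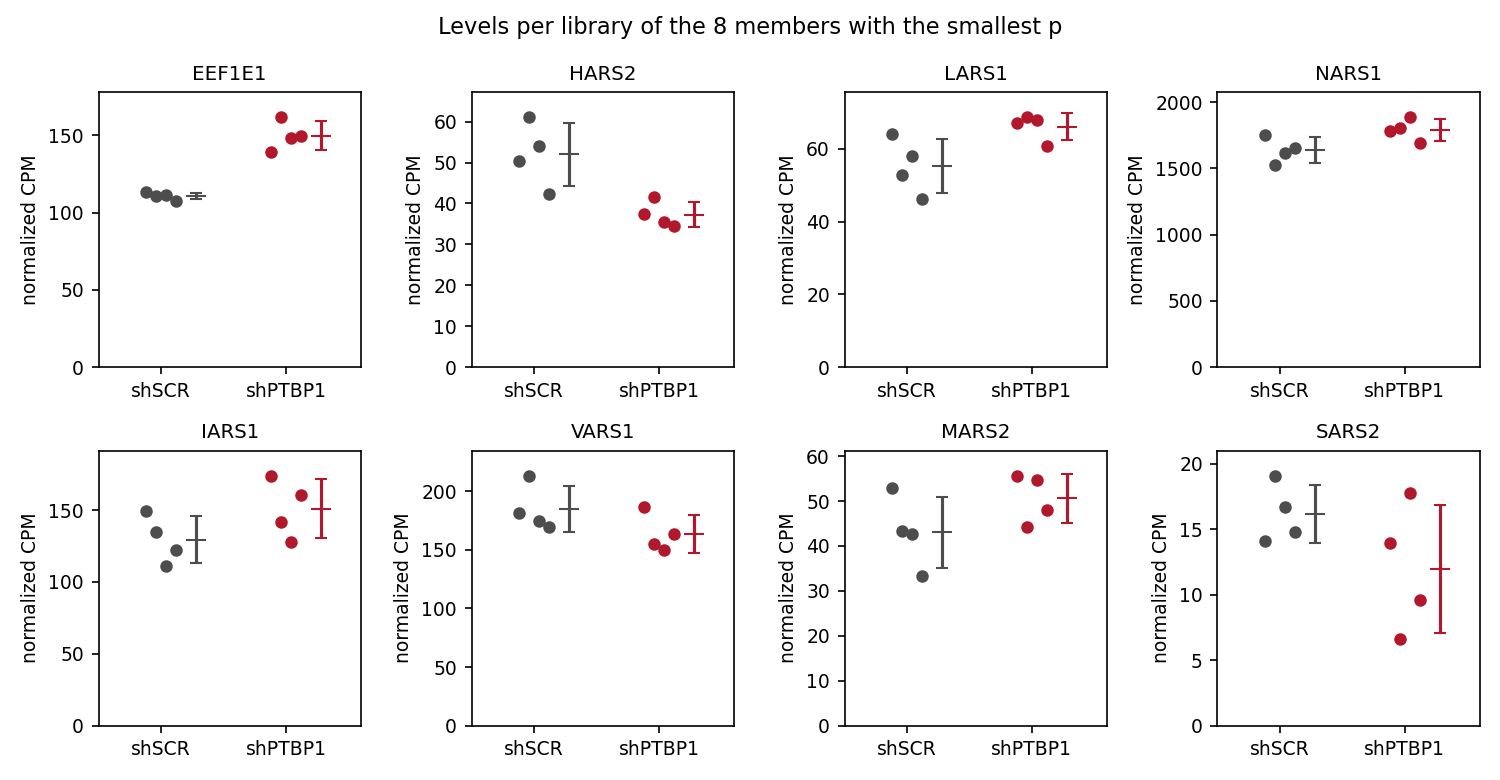
Normalized counts per 1000000 in each library (y axis) for shSCR (gray) and shPTBP1 (red), 4 libraries each, with the mean and SD beside the points, for the 8 members with the smallest edgeR p. The groups are apart in EEF1E1 and HARS2 and overlap in the other 6 genes.

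Of the scaffold proteins, EEF1E1 rose and the other 2 had log2 fold changes near 0. AIMP1, which also gives rise to the cytokine EMAPII, was at 138 ± 13.1 CPM (SD, n = 4) in shPTBP1 and 138 ± 17.6 CPM in shSCR, a log2 fold change of −0.01. AIMP2, which bridges synthetases in the core of the complex, was at 240 ± 15.4 CPM in shPTBP1 and 247 ± 14.8 CPM in shSCR, a log2 fold change of −0.04. The edgeR adjusted p was 0.985 for AIMP1 and 0.825 for AIMP2. Of the 11 genes of the complex EEF1E1 was the only one called, and the median log2 fold change of the 11 was 0.02.

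EEF1E1 (also called p18 or AIMP3) links methionyl-tRNA synthetase to the complex and resembles subunits of translation elongation factor 1. The gene lies at chr6:8073360-8102559 on the minus strand (hg38). It was at 139, 162, 148 and 150 CPM in shPTBP1 and at 113, 111, 111 and 108 CPM in shSCR. The lowest shPTBP1 library was above the highest shSCR library. The log2 fold change was 0.43 (edgeR adjusted p = 0.0051, SE 0.07), and the 95% interval of the fold change was 1.21 to 1.51. The exact two-sided permutation p was 0.0286, the smallest that 4 against 4 libraries can give. EEF1E1 was called in 14 of 14 alternatives, with an adjusted p from 0.00284 to 0.0235.

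Long reads placed nearly all counts of EEF1E1 on 3 transcripts that share their first coding exons and differ at the 3′ end, and these had unequal changes. EEF1E1-201 is the 4-exon transcript with a coding sequence of 174 codons. EEF1E1-205 stops in a longer exon 3, which runs 232 bases past the splice donor that EEF1E1-201 uses, and has a coding sequence of 150 codons. EEF1E1-202 joins exon 3 to another last exon (chr6:8073360-8073510), which lies 5884 bases beyond that of EEF1E1-201, and has a coding sequence of 139 codons.

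EEF1E1-201 was at 70.2, 79.3, 85.6 and 80.0 CPM in shPTBP1 and at 77.4, 79.6, 71.4 and 73.1 CPM in shSCR. Its groups overlapped, and its edgeR adjusted p over all transcripts was 0.814. EEF1E1-205 was at 56.3, 69.4, 50.03 and 55.7 CPM in shPTBP1 and at 33.2, 26.7, 36.7 and 30.2 CPM in shSCR. Every shPTBP1 library was above every shSCR library, with a log2 fold change of 0.86 (edgeR adjusted p = 0.00283, SE 0.14). EEF1E1-202 was at 11.4, 13.2, 11.8 and 13.4 CPM in shPTBP1 and at 2.46, 4.46, 3.33 and 3.85 CPM in shSCR. The groups were again apart, with a log2 fold change of 1.79 (edgeR adjusted p = 0.00208, SE 0.28) that rested on 99 counts in all. This test of single transcripts and these 3 transcripts were chosen after the values were seen, and all 11 alternatives tried called EEF1E1-202 and EEF1E1-205.

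The sequences below show where the coding sequence of both less abundant transcripts leaves that of EEF1E1-201. In the first, the capitals mark the last bases of the shared exon 3 (chr6:8090120-8090195, minus strand, hg38) and the small letters, which open with the gt of the splice donor, are the 66 bases that EEF1E1-205 reads on as coding sequence. The second is the coding part of the last exon of EEF1E1-202 (chr6:8073478-8073510, minus strand).
EEF1E1-205: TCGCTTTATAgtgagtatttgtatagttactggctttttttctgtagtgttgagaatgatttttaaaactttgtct
EEF1E1-202: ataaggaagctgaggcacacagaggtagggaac

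As shares of the gene, EEF1E1-202 and EEF1E1-205 together held 46.9 ± 3.95% (SD, n = 4) of the EEF1E1 counts in shPTBP1. In shSCR they held 31.8 ± 3.18%, and the groups did not overlap. These transcripts were put together after their levels were seen to be higher, so the lack of overlap says little beyond those levels. Their combined share is nearly all that EEF1E1-201 leaves, and no test is given for it. How often such combined shares do not overlap among all genes was not computed. EEF1E1-201 had the largest change of share of any member transcript in a gene with at least 50 counts on average, 52.7 ± 3.88% in shPTBP1 against 68.1 ± 3.18% in shSCR. Its usage test (diffSpliceDGE of edgeR) gave an adjusted p of 0.275, and it was not called. EEF1E1-202, at 8.33 ± 0.437% against 3.19 ± 0.798%, had an adjusted p of 0.0216 in the same edgeR test but a change below the 10 percentage points required for a call. The other gene annotated on this strand, EEF1E1-BLOC1S5, shares 393 exonic bases with EEF1E1 and had 1 count.

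**Figure D3:**
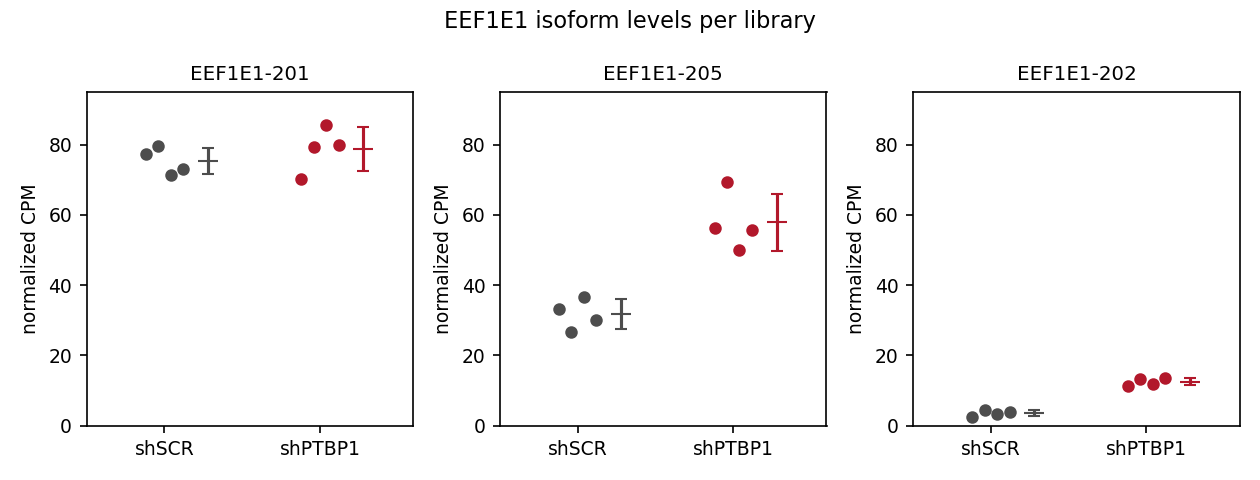
Normalized counts per 1000000 (y axis, same range in each panel) of the 3 main EEF1E1 transcripts in each shSCR (gray) and shPTBP1 (red) library, 4 each, with the mean and SD beside the points. EEF1E1-201 overlaps between groups, and EEF1E1-205 and EEF1E1-202 are higher in every shPTBP1 library.

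Among all members, 45 transcripts of 15 genes could be tested for a change of usage, and 0 were called at an adjusted p under 0.05 with a change of at least 10 percentage points, where 1.12% of all 5464 transcripts tested were called. Without adjustment 8 of the 45 had a diffSpliceDGE p under 0.05, where 6.37% of all transcripts tested did, and transcripts of the same gene are not independent of each other. With limma's diffSplice 1 of the 45, EEF1E1-201, was called, where 2.82% of all were. In the test of transcript levels, 66 member transcripts entered, 1 was lower (WARS1-201) and 2 were higher (EEF1E1-202 and EEF1E1-205), where 3.00% of all 10207 transcripts tested were lower and 2.45% were higher.

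The other member with a transcript called in the test of levels was WARS1, the tryptophan enzyme (chr14:100333790-100376805, minus strand, hg38). Its gene level had a log2 fold change of −0.02, and none of its transcripts was called in the usage test. WARS1-201 and WARS1-203 skip a 172-base exon (chr14:100369087-100369258) that holds the start codon of the full-length enzyme. Their annotated coding sequence starts further downstream and is 41 codons shorter, 430 codons against 471 in WARS1-202 and WARS1-204. Of the counts on transcripts that span this exon, those that lack it made up 11.7, 11.7, 12.5 and 13.1% in shPTBP1 and 15.2, 18.8, 18.3 and 16.1% in shSCR. All 4 shPTBP1 libraries were below all 4 shSCR libraries. The means were 12.2 ± 0.685% (SD, n = 4, 736 counts) and 17.1 ± 1.71% (1059 counts). This share was computed after the values of the transcripts were seen, and no test is given for it. How often such shares do not overlap among all genes was not computed.

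WARS1-201 was at 54.4, 41.0, 50.03 and 48.0 CPM in shPTBP1 and at 67.0, 82.8, 82.0 and 65.4 CPM in shSCR. The groups did not overlap, and the log2 fold change was −0.62 (edgeR adjusted p = 0.00889, SE 0.12). Its share of the gene was 4.96 ± 0.444% against 7.51 ± 0.683%, with an adjusted p of 0.0098 in diffSpliceDGE of edgeR, a change below the 10 points required for a call. WARS1-203, which skips the same exon but starts at another first exon, was at 62.0, 66.1, 69.8 and 77.5 CPM in shPTBP1 and at 83.6, 115, 94.0 and 77.0 CPM in shSCR. Its groups overlapped, with a log2 fold change of −0.43 (edgeR adjusted p = 0.0697, SE 0.13). Without shSCR replicate 4, the control library closest to shPTBP1, it passed the threshold, at −0.51 with an edgeR adjusted p of 0.0461. WARS1-202, the most abundant form, was at 532 ± 8.03 CPM (SD, n = 4) in shPTBP1 and 497 ± 42.2 CPM in shSCR, with an edgeR adjusted p of 0.501.

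The coding part of the skipped exon (chr14:100369087-100369185, minus strand, hg38) holds most of the coding bases that the shorter form lacks and is shown for that, with its start codon in capitals. The rest lie further downstream and are not shown.
WARS1 exon, coding part: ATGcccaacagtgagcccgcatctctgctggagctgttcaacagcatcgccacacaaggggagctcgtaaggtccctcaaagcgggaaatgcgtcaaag

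PTBP1 binds pyrimidine-rich RNA, so the 100 intronic bases before the 3 exons concerned were searched for TCTT and CTCTCT on the transcribed strand, motifs chosen after the values were seen. TCTT is in 65.6% of the 82204 such windows of expressed genes with introns at least as long, and in none of the 3. CTCTCT is in 7.79% of windows and, of the 3, only in that before the WARS1 exon (chr14:100369259-100369358, minus strand), where 2 matches overlap. The pyrimidine content was 57% before the WARS1 exon, 55% before the last exon of EEF1E1-202 (chr6:8073511-8073610) and 63% before that of EEF1E1-201 (chr6:8080031-8080130), where the median window had 55%. The WARS1 window and, for comparison, the EEF1E1-202 window are given with CTCTCT in capitals.
before the WARS1 exon: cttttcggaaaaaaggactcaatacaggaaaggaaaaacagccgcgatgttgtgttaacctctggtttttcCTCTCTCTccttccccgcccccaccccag
before the EEF1E1-202 last exon: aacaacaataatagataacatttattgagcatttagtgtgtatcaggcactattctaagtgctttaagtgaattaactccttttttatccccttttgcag

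**Figure D4:**
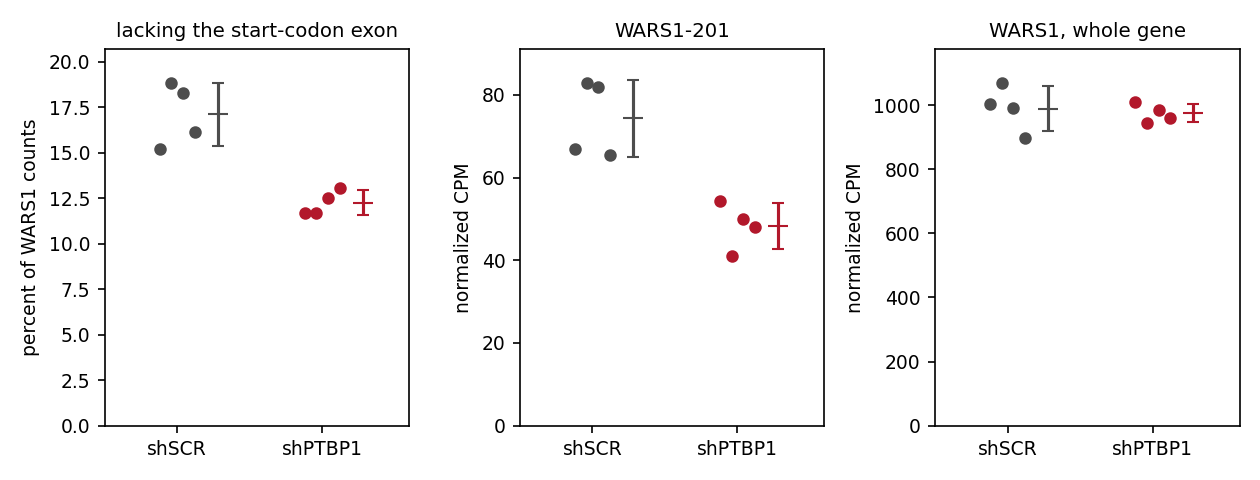
WARS1 in each shSCR (gray) and shPTBP1 (red) library, 4 each, with the mean and SD beside the points. The left panel gives the percent of counts on exon-spanning transcripts that lack the start-codon exon, the middle panel the WARS1-201 level in CPM, and the right panel the gene level in CPM; the first 2 are lower in every shPTBP1 library and the gene level overlaps.

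Other members had isoform shares that differed without passing a test. RARS2-209, a transcript of the mitochondrial arginine enzyme, was at 38.8, 41.9, 34.2 and 32.5% of RARS2 counts in shPTBP1 and at 31.3, 23.5, 30.1 and 21.8% in shSCR. The groups did not overlap, but the adjusted p in diffSpliceDGE of edgeR was 0.571. LARS1 transcripts that skip a 119-base exon (chr5:146177547-146177665) made up 35.1 ± 4.03% (SD, n = 4) of the spanning counts in shPTBP1 and 43.2 ± 3.28% in shSCR. GARS1-201, the main transcript of the glycine enzyme, held 62.4 ± 1.13% of GARS1 counts in shPTBP1 and 67.6 ± 3.07% in shSCR, and its adjusted p in diffSpliceDGE of edgeR was 1.00.

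A part of the member counts lay on transcripts annotated as targets of nonsense-mediated decay, a pathway that degrades mRNA with an early stop codon. Their share was 4.41 ± 0.224% (SD, n = 4) of all member counts in shPTBP1 and 4.02 ± 0.175% in shSCR, and the groups overlapped. The share was concentrated in few genes. It was 84.8 ± 5.79% for RARS2 in shPTBP1 and 80.9 ± 3.61% in shSCR, 72.0 ± 3.70% and 72.1 ± 3.36% for IARS1, and 31.9 ± 0.99% and 29.1 ± 2.65% for GARS1. The gene levels of RARS2 and IARS1 given above are therefore mostly counts assigned to transcripts that GENCODE does not annotate as protein-coding. Some transcripts of a gene differ little. RARS2-209 and another RARS2 transcript, RARS2-253, differ only at exon edges, such as in an exon of 61 or 59 bases. GARS1-201 and GARS1-229 differ in an exon of 163 or 161 bases and in the length of the last exon. How reliably reads were told apart between such transcripts was not tested, here or for the shares above.

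The genes of the amino acid response were read next, since this pathway is known to set the level of many cytosolic synthetases. Of 43 genes 34 were tested, 3 fell (PCK2, PHGDH and DDIT4) and 0 rose, where 3.19% of all genes tested were called lower and 2.36% higher, and the median log2 fold change was −0.07. In edgeR 9 of the 34 (26.5%) had an unadjusted p under 0.05, where 19.2% of all genes did, and 1 of those 9, DDIT3, had a positive log2 fold change. The CPM values of the groups did not overlap for 5 of the 34, where they did not overlap for 12.7% of all genes tested. By role, 2 of 10 enzymes, 1 of 9 effectors and none of the 7 transporters, 5 transcription factors or 3 sensors tested were called. The 3 sensors tested were EIF2AK1, EIF2AK2 and GCN1, while EIF2AK4, the kinase GCN2 named at the start, could not be tested.

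PCK2, the mitochondrial form of PEP carboxykinase, was at 235, 224, 232 and 218 CPM in shPTBP1 and at 385, 380, 393 and 320 CPM in shSCR. It fell by 0.70 on the log2 scale (edgeR adjusted p = 0.000136, SE 0.08) with groups far apart. PHGDH, the first enzyme of serine synthesis, was at 741, 687, 654 and 629 CPM in shPTBP1 and at 865, 819, 856 and 752 CPM in shSCR. It fell by 0.28 (edgeR adjusted p = 0.0296, SE 0.07). The groups of PHGDH did not overlap, with shPTBP1 replicate 1 just below shSCR replicate 4.

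DDIT4, an inhibitor of mTORC1 signaling, was at 127, 105, 106 and 96.0 CPM in shPTBP1 and at 152, 204, 132 and 150 CPM in shSCR, and fell by 0.56 (edgeR adjusted p = 0.0243, SE 0.13). The calls of PHGDH and DDIT4 were lost when any 1 of several libraries was left out. PHGDH lost its call without shPTBP1 replicate 2, 3 or 4 or shSCR replicate 1, 2 or 3 (edgeR adjusted p from 0.0506 to 0.103), and DDIT4 without shPTBP1 replicate 2, 3 or 4 or shSCR replicate 4 (edgeR adjusted p from 0.0528 to 0.0804). With either shPTBP1 replicate 2, 3 or 4 left out, 1 gene of the list, PCK2, was called. PCK2 was called in 14 of 14 alternatives.

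Of the kinases and transcription factors of the response, EIF2AK4 (58 counts), EIF2AK3 (7), ATF3 (33), CEBPB (58) and NUPR1 (38) had too few counts to be tested. ATF4 was tested and not called (edgeR adjusted p = 0.890) and had 148 counts over the 8 libraries, with 12.3 ± 2.16 CPM (SD, n = 4) in shPTBP1 and 11.4 ± 3.80 CPM in shSCR. ASNS, the asparagine synthetase, was at 16.6 ± 2.70 and 16.7 ± 1.72 CPM, and TRIB3, an ATF4-induced pseudokinase, at 747 ± 24.6 and 786 ± 119 CPM. DDIT3 (CHOP) was at 437, 425, 441 and 430 CPM in shPTBP1 and at 398, 374, 375 and 342 CPM in shSCR, without overlap, with a log2 fold change of 0.22 (edgeR adjusted p = 0.0569, SE 0.06). DDIT3 shares bases with MARS1 on the other strand, as given above. SLC1A5, a glutamine transporter, was at 66.9 ± 7.75 against 87.6 ± 9.16 CPM without overlap, with an edgeR adjusted p of 0.0604.

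Some of the elongation factors carry charged tRNAs to the ribosome or recycle the carrier. Of 10 genes 9 were tested and 1, EEF1G, was called, higher as were 2.36% of all genes, while EEF1A2 had no count, which allows up to 0.238 CPM (3 counts over all libraries, counting error only). EEF1G, the gamma subunit of elongation factor 1, was at 173, 163, 177 and 170 CPM in shPTBP1 and at 130, 131, 139 and 139 CPM in shSCR, a log2 fold change of 0.34 (edgeR adjusted p = 0.0129, SE 0.07). EEF1A1, the carrier itself, was at 3515 ± 78.4 CPM (SD, n = 4) in shPTBP1 and 3017 ± 338 CPM in shSCR, and EEF1B2, its exchange factor, at 504 ± 19.3 and 442 ± 24.7 CPM. In both the groups did not overlap, as was so for 12.7% of all genes tested. The test did not pass, with an edgeR adjusted p of 0.0978 for EEF1A1 and 0.1002 for EEF1B2. EEF1D, the delta subunit, had a log2 fold change of 0.05, EEF2, the translocase, −0.15, and the 4 mitochondrial factors TUFM, TSFM, GFM1 and GFM2 lay between −0.15 and 0.33.

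A list of 12 other genes held factors that act on tRNA or on charged tRNA, the synthetase TARS3 and the noncoding RNA GARS1-DT. Of these 9 were tested and 1 was called, higher as were 2.36% of all genes. AARSD1, which is related to the editing domain of alanyl-tRNA synthetase, was at 65.8, 64.7, 68.5 and 64.0 CPM in shPTBP1 and at 43.6, 43.9, 52.0 and 45.6 CPM in shSCR. The groups were apart, and the log2 fold change was 0.51 (edgeR adjusted p = 0.0127, SE 0.10). GARS1-DT, which is transcribed away from GARS1, was at 5.06, 5.29, 5.27 and 12.2 CPM in shPTBP1 and at 15.4, 13.4, 12.7 and 12.2 CPM in shSCR, a log2 fold change of −0.94 (edgeR adjusted p = 0.0978, SE 0.30). The groups did not overlap, as was so for 12.7% of all genes tested, but shPTBP1 replicate 4 lay just below shSCR replicate 4. Without shPTBP1 replicate 4, the library closest to shSCR, it passed, at −1.35 with an edgeR adjusted p of 0.0242. GARS1-DT had 127 counts over all libraries. It shares 312 exonic bases with GARS1 on the other strand. XPOT, the exporter of tRNA from the nucleus, had a log2 fold change of 0.04. DTD1 (55 counts), MTFMT (51 counts) and TARS3 (3 counts) were not tested.

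**Figure D5:**
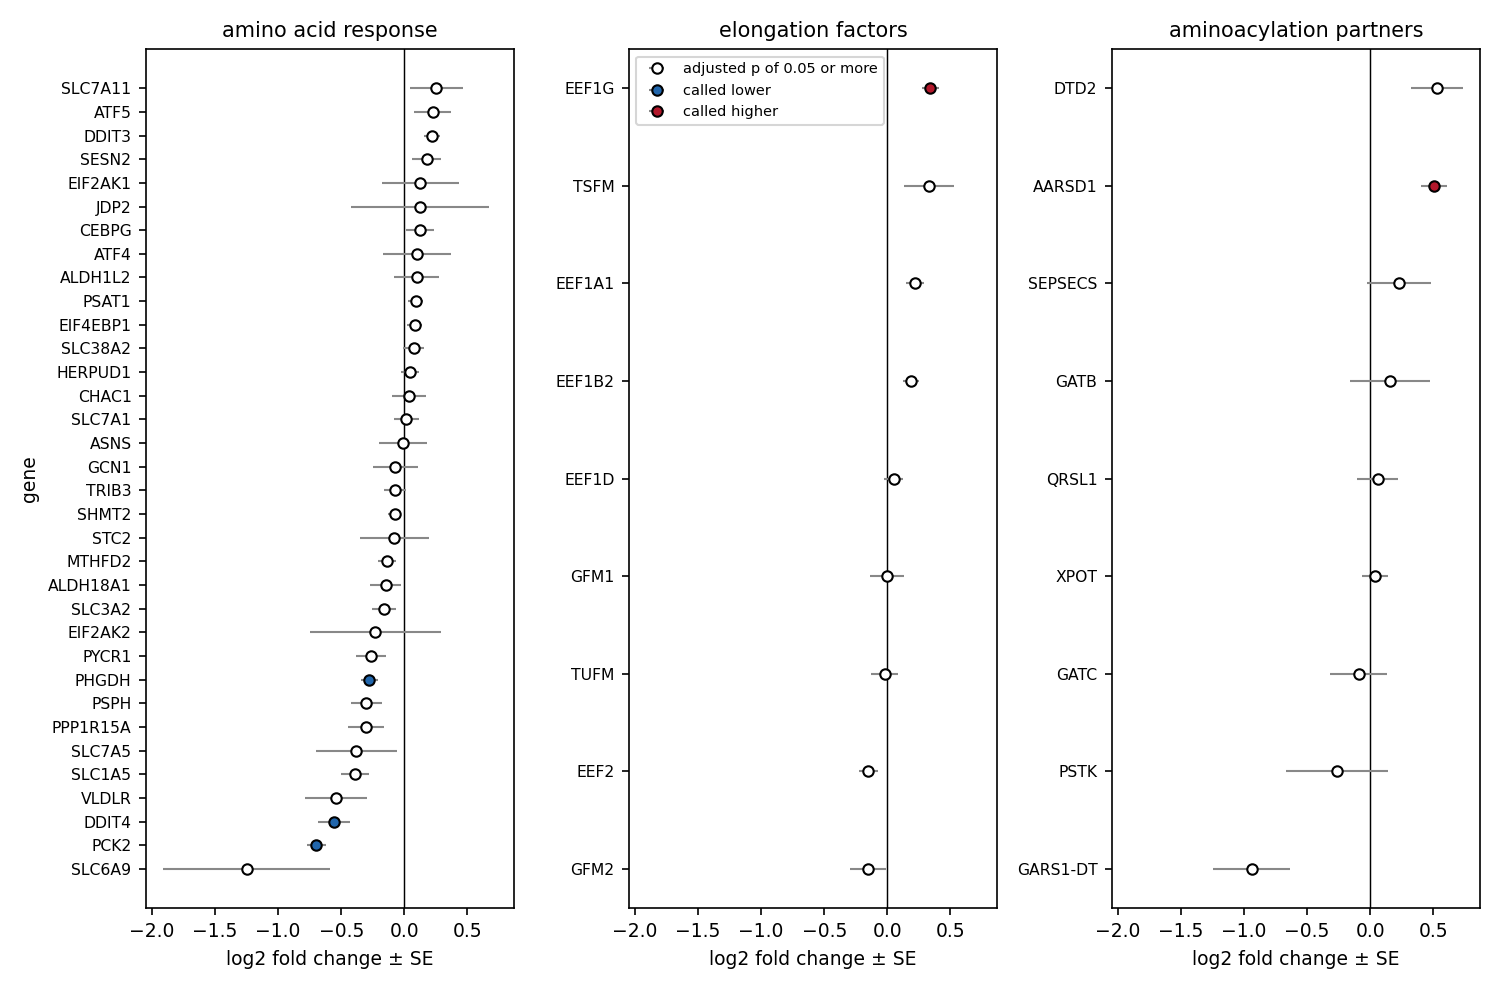
Log2 fold change of shPTBP1 over shSCR (x axis, points) with the SE of the edgeR fit (bars) for the tested genes of the amino acid response (34), elongation factors (9) and aminoacylation partners (9), with 4 libraries in each group and called genes filled. PCK2, DDIT4 and PHGDH are the called genes on the left at −0.70, −0.56 and −0.28, and EEF1G and AARSD1 are called at 0.34 and 0.51.

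ATF4 binds DNA as a partner of C/EBP proteins, so the RefSeq promoters (GRCh38.p14, 250 bases before each start) were searched on both strands for TGATGNAAT and TTGCATCA, which share part of their letters. Of the 40 members 33 had a promoter in the table. TGATGNAAT was in 1 of the 33 (GARS1) and in 1.09% of the 27305 genes with a promoter, and TTGCATCA was in 2 of the 33 (IARS1 and AARS1) and in 0.967% of genes. The matches are given with the motif in capitals. They lie 25 bases before a GARS1 start (chr7:30594834-30594862, plus strand, motif on the other strand), 5 bases before an IARS1 start (chr9:92293698-92293720, minus strand) and 179 bases before an AARS1 start (chr16:70289676-70289703, minus strand).
GARS1: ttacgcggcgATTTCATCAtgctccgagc
IARS1: tttcagcgcgTTGCATCAcctcc
AARS1: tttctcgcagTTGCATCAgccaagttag
The log2 fold changes of these 3 genes were 0.04, 0.22 and −0.01, and none was called.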

How the data were processed

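Nanopore cDNA reads of 8 MOLM-13 libraries were aligned by the authors to hg38 with minimap2 and filtered for high mapping quality. They were then counted per annotated transcript with StringTie (tool versions not given in the sources used here). How many reads of each gene the filter removed was not examined. The deposited transcript counts, whole numbers without normalization, were used. A second deposited table, CPM values under the name TPM, was not used. No column was left without a sample.

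Counts were summed per gene by Ensembl identifier in GENCODE 44, where 1508 of 254070 transcripts were not found (0.0876% to 0.115% of counts). For genes kept by filterByExpr, edgeR 4.0.16 (R 4.3.3) gave TMM factors and quasi-likelihood tests, with Benjamini-Hochberg adjustment over all genes. Transcript usage was tested with diffSpliceDGE (adjusted p under 0.05, at least 10 percentage points), and transcript levels with the same edgeR fit. CPM are TMM-normalized. Single values were compared by exact permutation. Fits were tested on simulated data. Alternatives were DESeq2 1.42.0, limma 3.58.1 (voom, diffSplice), DESeq2 size factors, other filters, the replicate number as a block and leaving out each library. Replicate numbers did not pair the libraries (correlation of deviations −0.033 to 0.0089).

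Full values are given for called members and those with the smallest p up to 8, other members by fold change or counts, called genes of the other lists, and the member transcript with the largest change of share; 2 members count in the totals but are not reported here by name, and other features were named once their values were known. The members and lists were chosen with earlier results of these data known. With 1528449 to 1613342 counts per library, lowly expressed genes carry wide intervals, which cover the spread between these replicates; amplified cDNA molecules are not independent.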

Additional observations from a re-analysis of the deposited data

Results flagged for a closer look

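Each group of 4 libraries was examined for a library far from the other 3, by the gap to its nearest neighbor divided by the range of the group, and held against the 95% critical value of Dixon. Of 88 groups, 3 were beyond it (3.41%), where chance gives about 1 in 20. GARS1 in shPTBP1 had a ratio of 0.844, with replicate 2 at 507 CPM and the others at 544 to 551 CPM. IARS2 in shSCR had a ratio of 0.856, with replicate 2 at 310 CPM and the others at 263 to 270 CPM. NARS2 in shPTBP1 had a ratio of 0.85, with replicate 1 at 25.9 CPM and the others at 30.3 to 31.1 CPM. None of the 3 genes was called.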

How the results depend on the processing

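The count of synthetase and scaffold genes called (1) was 2, with HARS2 added, under a mean of at least 50 counts, where the count of mitochondrial genes called was 1. When each library was left out in turn it ran from 1 to 2 in all and from 0 to 1 among mitochondrial genes. The amino acid response genes called (3) were 5 under a mean of at least 50 counts, with DDIT3 and SLC1A5 added, and ran from 1 to 3 in leave-one-out fits. The isoforms called (0) were 1 with limma's diffSplice, 2 without a minimum change of share (EEF1E1-202 and WARS1-201), and 3 by transcript level; that last alternative was added with the values known. With the replicate block, 1 synthetase or scaffold gene, 3 amino acid response genes, 2 elongation or partner genes and 0 isoforms were called, and the block changed no other call. EEF1A1 passed with DESeq2 (adjusted p = 0.0241) and without a filter on low counts (0.0444). Of 656 alternative values of single genes, 639 kept their direction and side of the threshold or stayed uncalled, 10 lost and 7 gained a call and 0 called values reversed; 40 uncalled values changed sign. The median of the members ran from −0.02 to 0.04. Depth limited the mitochondrial genes most, of which 5 of 13 tested had 95% intervals within 0.5 of 0 on the log2 scale, against 19 of 20 cytosolic genes.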
